A study of Mus musculus with 2 samples.

Results

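The clustered protocadherin genes of mouse chromosome 18 were examined in peak lists of accessible chromatin from formalin-fixed, paraffin-embedded (FFPE) spleen. Members were all protein-coding genes of GENCODE vM21 on chromosome 18 whose symbol starts with Pcdha, Pcdhb or Pcdhg, which gave 57 of 21938 protein-coding genes. They form the alpha cluster (14 genes), the beta cluster (22 genes) and the gamma cluster (21 genes). The annotation holds 2 gene records with the symbol Pcdha11, and both were counted. The tissue was assayed by scFFPE-ATAC, in which barcoded Tn5 transposase inserts into open DNA of fixed nuclei and T7 transcription amplifies the insertion sites. There were 2 libraries, 1 of nuclei prepared without density gradient centrifugation, the step that removes debris, and 1 tagmented in a 50 µL reaction system. The labels give neither the reaction volume of the first nor the nuclei preparation of the second. According to the methods, the spleens came from 8-week-old C57BL/6J mice, both male and female, and which animals gave which library is not stated in the sources used here. With 1 library per condition there was no replicate, so counts and levels are given with no test. Differences between the libraries cannot be told apart from differences in depth or in library quality. For spleen nuclei without the gradient step, the paper reports weaker enrichment at start sites, more duplicates and a smaller part of reads in peaks. It also states that cell types were not clearly separated there.

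Clustered protocadherins are cell-surface adhesion proteins of the cadherin superfamily, known above all from neurons. In the alpha and gamma clusters each gene has its own promoter and large variable first exon, which is spliced to constant exons shared by the whole cluster, whereas each beta gene is complete in 1 exon or nearly so. In neurons the alternate genes are switched on in a few at a time by a choice of promoter that involves the looping proteins CTCF and cohesin, while most of the C-type genes (Pcdhac1, Pcdhac2, Pcdhgc3, Pcdhgc4 and Pcdhgc5) follow other rules and are expressed more evenly.

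The list without density gradient centrifugation held 25343 peaks over 8.815 Mb, and the 50 µL list held 89382 peaks over 37.999 Mb. The labelled tissue was checked against marker promoters, counted as open when a peak lay within 1 kb of a TSS. Of the B cell markers, 2 of 6 had a peak without density gradient centrifugation and 6 of 6 in the 50 µL library. The T cell markers had 2 of 6 and 5 of 6, and the macrophage markers 1 of 4 and 4 of 4. The share over all protein-coding genes was 43.7% without density gradient centrifugation and 56.6% in the 50 µL library. Each of these immune marker sets was below that share in the first library and above it in the second. These sets are small, and their exact intervals were wide. Without density gradient centrifugation they were 4.33 to 77.7% for B cell and for T cell markers and 0.631 to 80.6% for macrophage markers. In the 50 µL library they were 54.1 to 100%, 35.9 to 99.6% and 39.8 to 100%, in the same order. Each interval holds the share over all protein-coding genes of its library. The immune marker counts therefore cannot decide, in either library, whether the labelled tissue is borne out. Of 7 neuron markers, 0 had a peak without density gradient centrifugation and 1 (Elavl4, an RNA-binding protein) in the 50 µL library. The part of nerve cells in the protocadherin peaks described here was not tested.

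Few clustered protocadherin promoters were open in either library, and all of those lay in the gamma cluster. A peak within 1 kb of a TSS was present at 2 of 57 members without density gradient centrifugation (3.51%, exact 95% interval 0.428 to 12.1) and at 7 of 57 members in the 50 µL library (12.3%, 5.08 to 23.7). Over all protein-coding genes the same share was 43.7% without density gradient centrifugation and 56.6% in the 50 µL library. The 513 protein-coding genes of chromosome 18, with the 57 members counted among them, had 44.8% and 56.3%. By cluster, the alpha genes had 0 of 14 in both libraries (interval up to 23.2%) and the beta genes 0 of 22 in both (up to 15.4%). The gamma genes had 2 of 21 without density gradient centrifugation (9.52%, 1.175 to 30.4) and 7 of 21 in the 50 µL library (33.3%, 14.6 to 57.0). These intervals cover counting error only, and the members of a cluster are neighbours that share a chromosomal region. When the 50 µL list was cut to its 25343 most significant peaks, 0 of 57 members kept a promoter peak, against 45.2% of all protein-coding genes.

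**Figure D1:**
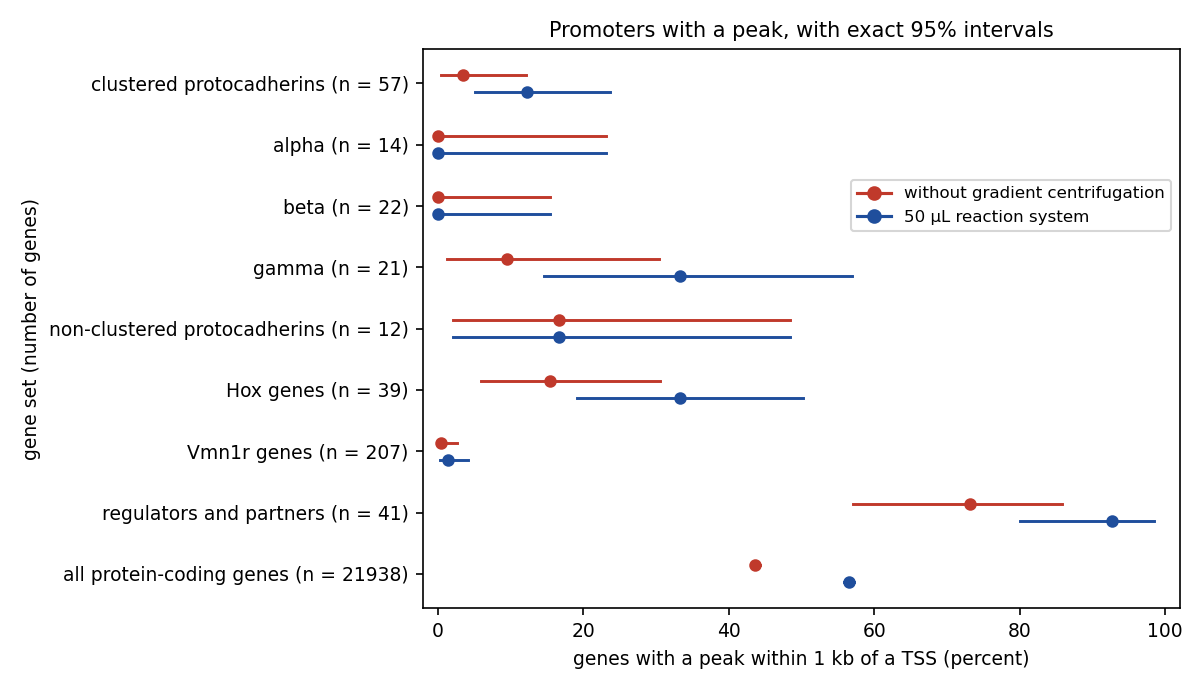
Percent of each gene set with a promoter peak (1 kb on either side of a TSS). Red is without density gradient centrifugation and blue the 50 µL reaction system. Points are shares and bars exact 95% intervals. The clustered protocadherins had 3.51% and 12.3%, against 43.7% and 56.6% of all protein-coding genes, and alpha and beta stood at 0 in both libraries.

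The plot of promoter shares sets the members beside other gene families. Of the 12 non-clustered protocadherins, single genes that lie outside the arrays, 2 had a promoter peak in each library. These were Pcdh17, with a fold enrichment of 6.67 without density gradient centrifugation and 4.68 in the 50 µL library, and Pcdh1, with 3.98 and 5.21. The Hox genes, transcription factors of the body axis that are also arrayed in clusters, had 6 of 39 without density gradient centrifugation and 13 of 39 in the 50 µL library. The Vmn1r genes, pheromone receptors of the vomeronasal organ in large arrays, had 1 of 207 and 3 of 207. The gamma share was 33.3% in the 50 µL library, the same as that of the Hox genes, but 9.52% against 15.4% without density gradient centrifugation and 0 of 21 against 6 of 39 in the 50 µL list of equal length.

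In the library without density gradient centrifugation, the open members were Pcdhgb6 and Pcdhgc3. Pcdhgb6, an alternate gene of the gamma B type, carried a peak at chr18:37741994-37742303 (mm10) with a fold enrichment of 6.91 and a −log10 q of 12.9. Its summit lay 12 bp after the TSS. Pcdhgc3, the first C-type gene of the gamma cluster and one that is broadly expressed in other tissues, carried a peak at chr18:37806236-37806454 with a fold enrichment of 5.90 and a −log10 q of 9.83. Its summit lay 24 bp before the TSS. Fold enrichment is the pileup at the summit over the local background, and −log10 q grows with the peak's significance. Among the 10132 promoter peaks of this list, 79.8% had a lower fold enrichment than Pcdhgb6 and 61.2% a lower one than Pcdhgc3. By −log10 q, 53.7% ranked below Pcdhgb6 and 35.3% below Pcdhgc3. Both peaks were narrower, at 310 and 219 bp, than the median promoter peak of 375 bp.

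In the 50 µL library both of these promoters were open again, with 5 more. The peak at Pcdhgb6 (chr18:37741940-37742253) had a fold enrichment of 4.42 and a −log10 q of 16.3, and its summit differed by 24 bp from that of the other library. The peak at Pcdhgc3 (chr18:37805912-37806530) had a fold enrichment of 4.08 and a −log10 q of 16.7, with a summit 59 bp from the other. Fold enrichments are not on 1 scale across the lists: the median promoter peak stood at 5.41 without density gradient centrifugation and 3.63 in the 50 µL library.

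The highest member peak of the 50 µL library lay at Pcdhgb7 (chr18:37751500-37751764), a gamma B gene, with a fold enrichment of 4.85 and a −log10 q of 19.7. Its neighbour Pcdhga11 (chr18:37755599-37755884), of the gamma A type, had 4.25 and 15.0. Pcdhga1 (chr18:37661698-37661897), the first gene of the cluster, had 3.91 and 12.5 with the summit 2 bp before the TSS. The lowest was Pcdhgb5 (chr18:37730799-37731062) with 3.06 and 6.82. Pcdhgc4, the C-type gene after Pcdhgc3, had the broadest peak, at 1011 bp (chr18:37814495-37815505), with a fold enrichment of 4.01 and a −log10 q of 16.6. By type, 2 of 12 gamma A, 3 of 6 gamma B and 2 of the 3 gamma C-type genes had a peak in this library. The C-type genes Pcdhgc5, Pcdhac1 and Pcdhac2 had none in either library.

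Most of the 7 member peaks of the 50 µL library were above the middle of all promoter peaks in height. All were below the middle in significance. Their fold enrichments had a median of 4.08 (3.06 to 4.85), beside 3.63 over the 19889 promoter peaks of that list. From 33.7% (Pcdhgb5) to 77.1% (Pcdhgb7) of promoter peaks had a lower fold enrichment. Their −log10 q had a median of 16.3 (6.82 to 19.7), beside 23.3, and from 8.91% to 44.5% of promoter peaks ranked below each of them. All 7 fell under the lowest −log10 q of the list of equal length, 22.5, which is why none was kept there. Their median width was 286 bp, beside 516 bp.

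The member peaks sat close on the start sites. In the 50 µL library the 7 summits lay between 67 bp before and 46 bp after the nearest annotated TSS of the member, with a median distance of 36 bp. Over all promoter peaks of that list the median distance was 197 bp, and 31.7% of summits lay within 100 bp of a TSS. Without density gradient centrifugation the median was 18 bp for the 2 member peaks and 110 bp over all promoter peaks, of which 47.3% lay within 100 bp. Narrow peaks have less room for a distant summit, and no test of the difference was made.

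**Figure D2:**
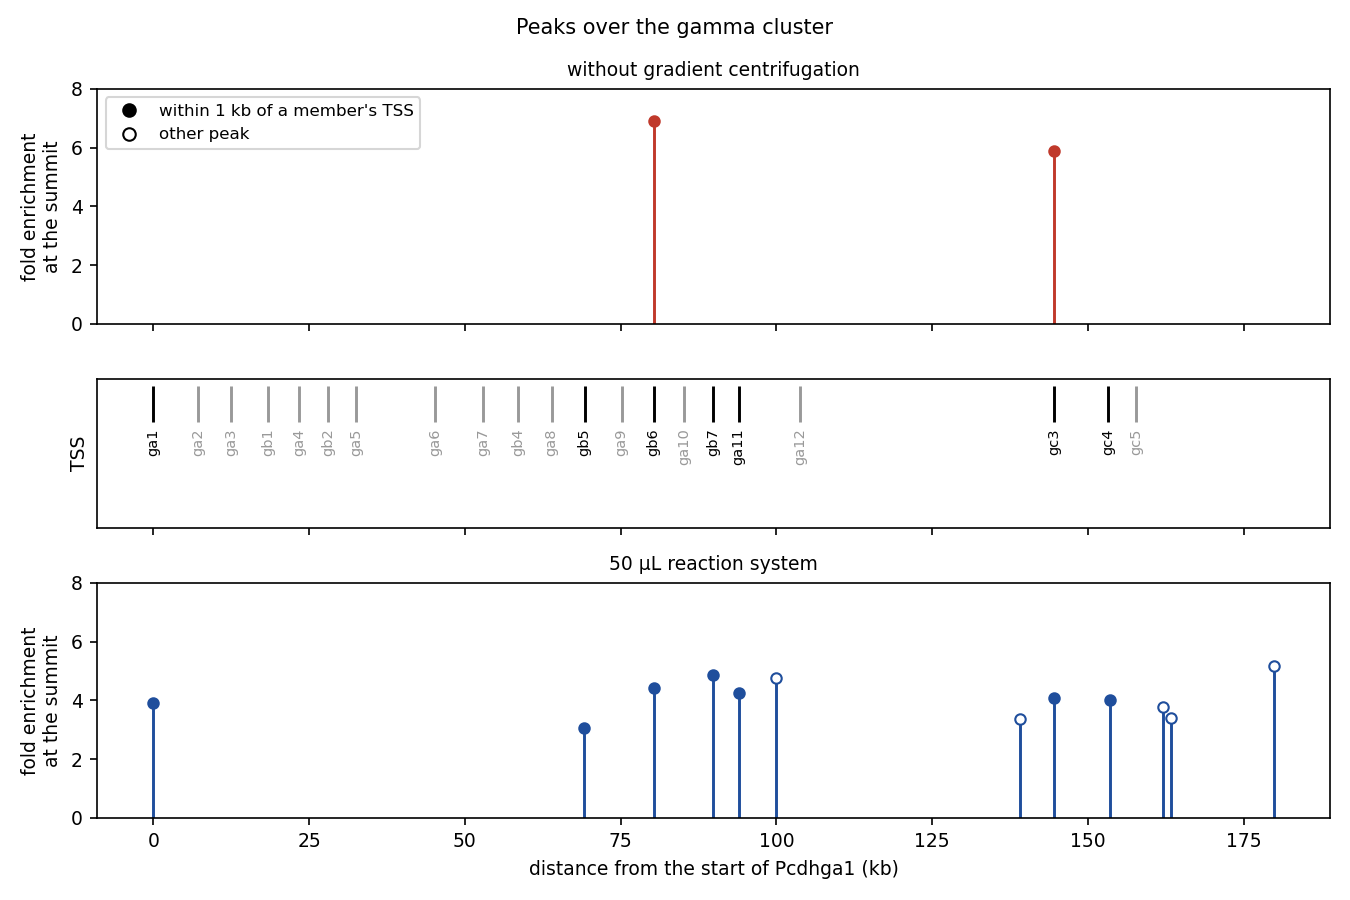
Fold enrichment at the summit of each peak over the gamma cluster without density gradient centrifugation (top) and in the 50 µL library (bottom), by distance from the start of Pcdhga1 in kb. Filled points lie within 1 kb of a member's TSS and open points do not, and names in black mark the members with a promoter peak in the 50 µL library. There are 2 peaks in the upper panel and 12 in the lower one, and 6 of the 7 open promoters of the lower panel lie from Pcdhgb5 on.

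The map of the gamma cluster shows where along it the open promoters lay. From Pcdhgb5 to the end of the cluster, 2 of 10 members had a peak without density gradient centrifugation and 6 of 10 in the 50 µL library. Of the 11 members before Pcdhgb5, 0 and 1 did, and the 1 was Pcdhga1. Over all protein-coding genes the shares were 43.7% and 56.6%, so the later run was near that level in the 50 µL library and under it in the other. This division was chosen after the values were seen. The 4 members of the run from Pcdhgb5 on that lacked a peak in the 50 µL library were Pcdhga9, Pcdhga10, Pcdhga12 and Pcdhgc5. Each lay near another peak: the nearest was 3.72 kb away for Pcdhga12, 4.01 kb for Pcdhgc5, 4.51 kb for Pcdhga10 and 4.57 kb for Pcdhga9.

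The gamma cluster held 5 more peaks in the 50 µL library and 0 more without density gradient centrifugation. The highest lay in the last constant exon, at chr18:37841432-37841838, with a fold enrichment of 5.17 and a −log10 q of 24.3. It was the only gamma peak in the list of equal length. The peak at chr18:37761338-37761858 (fold enrichment 4.77) covered the TSS of Pcdhgb8, which the annotation lists as a polymorphic pseudogene and which was therefore no member. With Pcdhgb8 counted, the gamma cluster would have had 8 of 22 open promoters in the 50 µL library. A peak at chr18:37800850-37801105 (3.36) lay 5431 bp before the TSS of Pcdhgc3 and in no member's exon. The peaks at chr18:37823798-37824016 (3.77) and chr18:37824886-37825161 (3.41) lay at start sites of the non-coding transcript Gm38182, and the second also overlapped a constant exon used by all 21 gamma genes. In all, 8 of the 12 gamma peaks overlapped an exon of 1 to 4 members, 2 a constant exon and 2 no exon of a member.

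Both gamma peaks of the library without density gradient centrifugation overlapped a 50 µL peak by at least 1 bp, where 95.3% of all its peaks did. Of the 12 gamma peaks of the 50 µL library, 2 overlapped a peak of the other list (16.7%, exact 95% interval 2.09 to 48.4), where 26.3% of all its peaks did. For the 2 peaks without density gradient centrifugation the exact 95% interval was 15.8 to 100%. Both intervals are wide and hold the share of the list as a whole.

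The alpha and beta clusters and the DNA around them held no peak at all in either list. The alpha cluster spans 257 kb, the beta cluster 260 kb and the gamma cluster 180 kb, and the 3 clusters together 912 kb. The 100 kb before alpha, the alpha cluster, the stretch between alpha and beta, the beta cluster and the 137 kb between beta and gamma each had 0 peaks in both libraries. A peak that overlapped a cluster was counted there, so the 50 µL peak at Pcdhga1, whose summit lies 2 bp before the first base of gamma, was counted in gamma. The gamma cluster had 2 peaks without density gradient centrifugation (529 bp covered) and 12 in the 50 µL library (4638 bp), or 1.11 and 6.66 per 100 kb. In the 100 kb after gamma, most of which is the gene Diaph1 (an actin-nucleating formin), there were 5 peaks without density gradient centrifugation and 19 in the 50 µL library. Peaks at the Diaph1 promoter had a fold enrichment of 6.11 and 4.41.

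**Figure D3:**
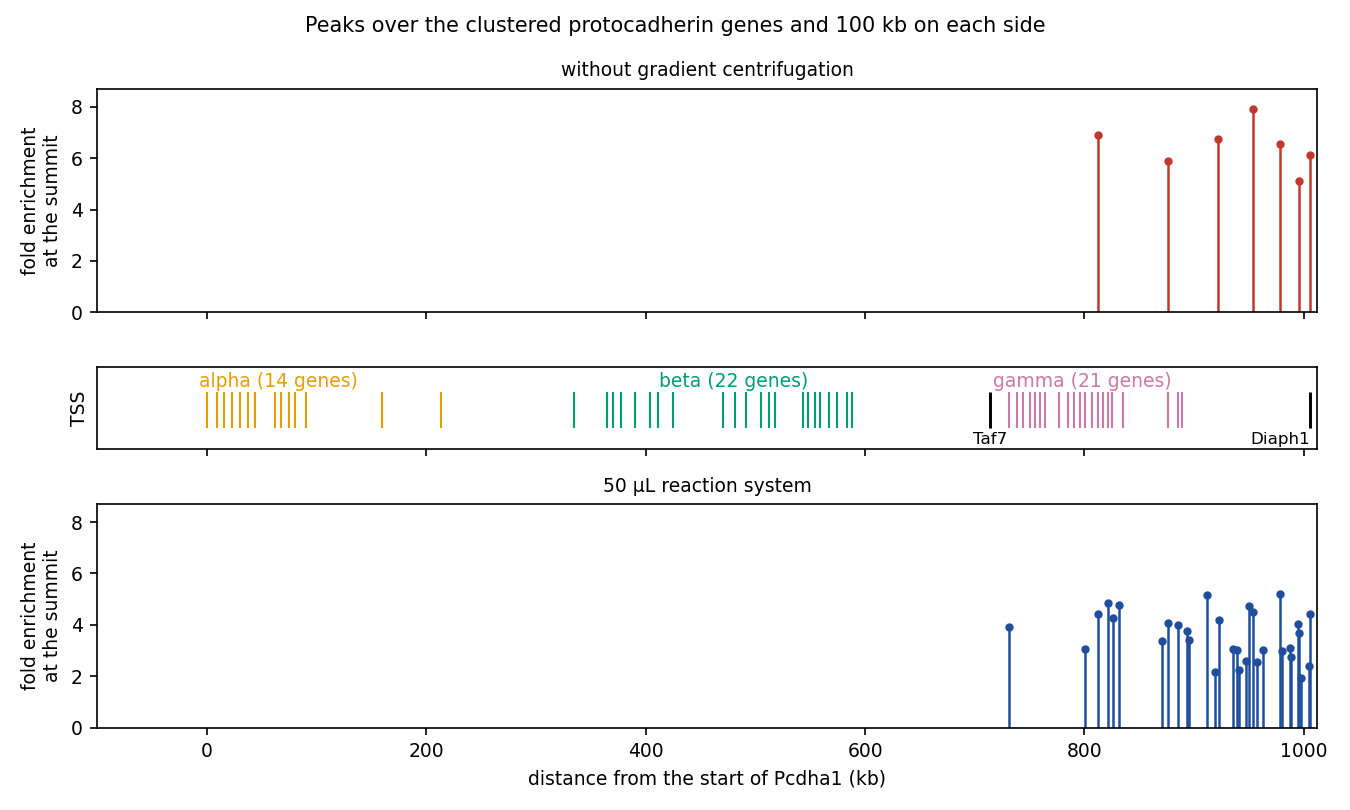
Fold enrichment of every peak over the clusters and 100 kb on each side, without density gradient centrifugation (top) and in the 50 µL library (bottom), by distance from the start of Pcdha1 in kb. The middle panel marks the TSS of each member, Taf7 and Diaph1. No peak lies over the alpha or beta genes, 2 and 12 lie over the gamma genes, and 5 and 19 in the flank after them.

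The map of the whole span shows 1 long empty stretch that ends inside the gamma cluster. Without density gradient centrifugation it ran for 939 kb, between the end of a peak 127 kb before Pcdha1 and the peak at Pcdhgb6. In the 50 µL library it ran for 858 kb and ended at Pcdhga1. Gaps at least as long made up 514 of 25323 gaps between neighbouring peaks without density gradient centrifugation (2.03%) and 466 of 89144 in the 50 µL library (0.523%), where the median gaps were 22.8 and 6.45 kb.

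Peaks in each list are numbered along the chromosome, and in this stretch 1 number was skipped in both lists. So 1 numbered peak of each library in this stretch was not analysed here. Its position is unknown, and the methods state that peaks in blacklisted regions were removed. Over the whole lists 978 numbers (3.72%) were skipped without density gradient centrifugation and 2054 (2.25%) in the 50 µL library, and none was skipped from the first gamma peak of each list to the end of the flank. By this numbering, at most 1 peak of each library is lacking from the counts of 0 given for the alpha and beta clusters and their surroundings. Without density gradient centrifugation the stretch also takes in the first 80.2 kb of the gamma cluster, so for that library the skipped peak may lie in gamma, among the members before Pcdhgb6, and limits the gamma counts as well.

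Tiles as long as the alpha and beta clusters with the DNA between, shorter than the stretch above, were often empty. Empty tiles that were also dense in genes mostly held other gene families. In tiles as long as the 594 kb from the start of alpha to the end of beta, 1388 of 4252 (32.6%) had no peak without density gradient centrifugation and 1069 (25.1%) in the 50 µL library. Among the 707 tiles with at least 10 protein-coding genes, 61 (8.63%) and 46 (6.51%) had none, and the median tile had 14 and 43 peaks. The 61 empty gene-dense tiles held 1148 genes, of which 719 (62.6%) were olfactory or vomeronasal receptors by symbol, and the 46 tiles of the 50 µL library held 864 genes with 546 such receptors (63.2%). The CpG observed/expected ratio of their promoters had a median of 0.109 over the tiles in both libraries, against 0.488 for the 39 protein-coding genes from alpha to beta. Only 1 of those tiles reached 0.488 in either library, and it was the tile from Pcdha1 to Pcdhb12 (0.564). That cutoff is the region's own median, and 26 of the tile's 29 genes are members. That this tile reached it therefore says little. The next highest tile stood at 0.332 without density gradient centrifugation and 0.230 in the 50 µL library.

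Other protein-coding genes inside the array had no promoter peak in either list. Slc25a2, a mitochondrial ornithine carrier, and Taf7, a subunit of the general transcription factor TFIID, lie between beta and gamma, and neither had a promoter peak. The nearest peak to Taf7 was 97.8 kb away without density gradient centrifugation and 17.5 kb away in the 50 µL library, although its promoter had a CpG ratio of 1.07. The skipped peak number falls in the stretch that holds Taf7. The read-through records Gm42416, Gm37013 and Gm37388, which start in the alpha cluster, had none either. The genes on each side contrasted with this. The share over all protein-coding genes was 43.7% without density gradient centrifugation and 56.6% in the 50 µL library. Within 500 kb before alpha, 12 of 19 other protein-coding genes had a peak at the promoter without density gradient centrifugation and 14 of 19 in the 50 µL library. Within 500 kb after gamma, 9 of 10 had one in both, among them Hdac3, a histone deacetylase, with a fold enrichment of 7.29 and 5.93. The exception was the protocadherin Pcdh12. Some neighbours shared a peak, such as Hars and Hars2 or Hdac3 and Rell2, so the open genes outnumber the peaks. These windows, and the genes named in them outside the 100 kb flanks, were chosen after values were seen.

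**Figure D4:**
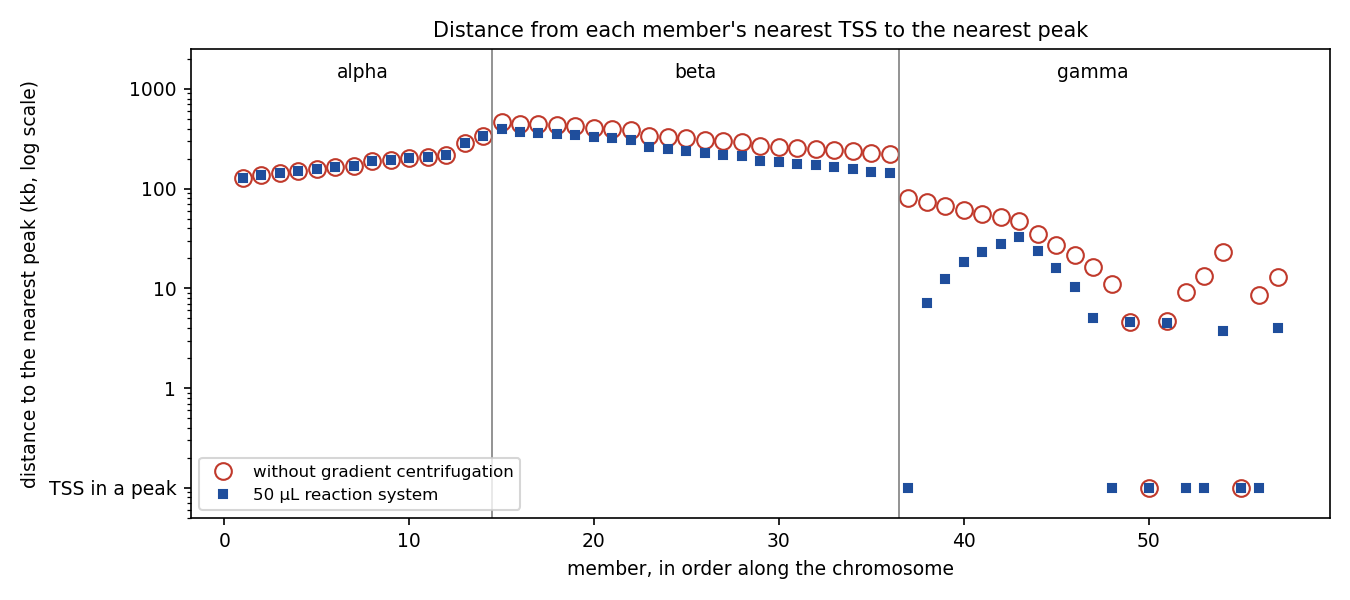
Distance from each member's TSS to the nearest peak in kb (log scale), in order along the chromosome, without density gradient centrifugation (red circles) and in the 50 µL library (blue squares). A TSS inside a peak is drawn at the lowest tick. Alpha and beta genes lie 127 to 462 kb from any peak, and the gamma genes at most 80.2 kb.

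The plot of distances shows how far each member was from open chromatin. The alpha genes had a median distance of 180 kb to the nearest peak in both libraries, from 127 kb at Pcdha1 to 340 kb at Pcdhac2. The beta genes were farther, with a median of 313 kb without density gradient centrifugation and 233 kb in the 50 µL library. Pcdhb1, Pcdhb2 and Pcdhb3 were farthest, at 462, 447 and 441 kb without density gradient centrifugation and 397, 367 and 361 kb in the 50 µL library, and Pcdhb22, the last gene of the cluster, was at 224 and 143 kb. The gamma genes had a median of 21.6 kb without density gradient centrifugation (0 to 80.2) and 4.57 kb in the 50 µL library (0 to 32.5). Over all protein-coding genes the median was 4.29 and 0.033 kb. The Hox genes, at 10.4 and 3.43 kb, were near the gamma genes, and the Vmn1r genes, at 270 and 246 kb, were near the alpha and beta genes. Without density gradient centrifugation, the members with no promoter peak that came closest to a peak were Pcdhga9 (4.63 kb), Pcdhga10 (4.69 kb) and Pcdhgc4 (8.63 kb).

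The CpG content of a promoter tracks how often it is open across all genes, and the members were set beside genes of like content. The CpG observed/expected ratio within 500 bp of the 5′-most TSS had a median of 0.564 over the members (0.158 to 0.864), close to the 0.552 of all protein-coding genes. The clusters differed: the alpha genes had a median of 0.682 (0.564 to 0.749), the beta genes 0.378 (0.158 to 0.519) and the gamma genes 0.594 (0.233 to 0.864). The alpha and beta ranges did not overlap.

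In the fourth CpG quintile of all genes (0.655 to 0.803), 69.9% were open without density gradient centrifugation and 81.9% in the 50 µL library. The 19 members in this quintile had 2 and 4. Of these, the 11 alpha genes had 0 in both libraries and the 8 gamma genes 2 and 4. In the third quintile, where 46.9% and 63.3% of all genes had a peak, the 23 members had 0 and 2. In the second quintile, with 18.9% and 34.6% of all genes, the 13 members had 0 in both. The first quintile held 1 beta gene with no peak, against 7.63% and 14.8% of all genes. Pcdhga11, alone in the fifth quintile at 0.864, had no peak without density gradient centrifugation and 1 in the 50 µL library, against 75.1% and 88.2% of all genes.

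Within the gamma cluster, the 7 members with a peak in the 50 µL library had a median CpG ratio of 0.670 (0.564 to 0.864), and the 14 without had 0.581 (0.233 to 0.744). The ranges overlapped: Pcdhga8 at 0.744 and Pcdhga10 at 0.740 had no peak, while Pcdhga1 at 0.564 had one. Pcdhgc5, the C-type gene with no peak, had the lowest ratio of the cluster at 0.233, beside 0.797 for Pcdhgc3 and 0.670 for Pcdhgc4.

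**Figure D5:**
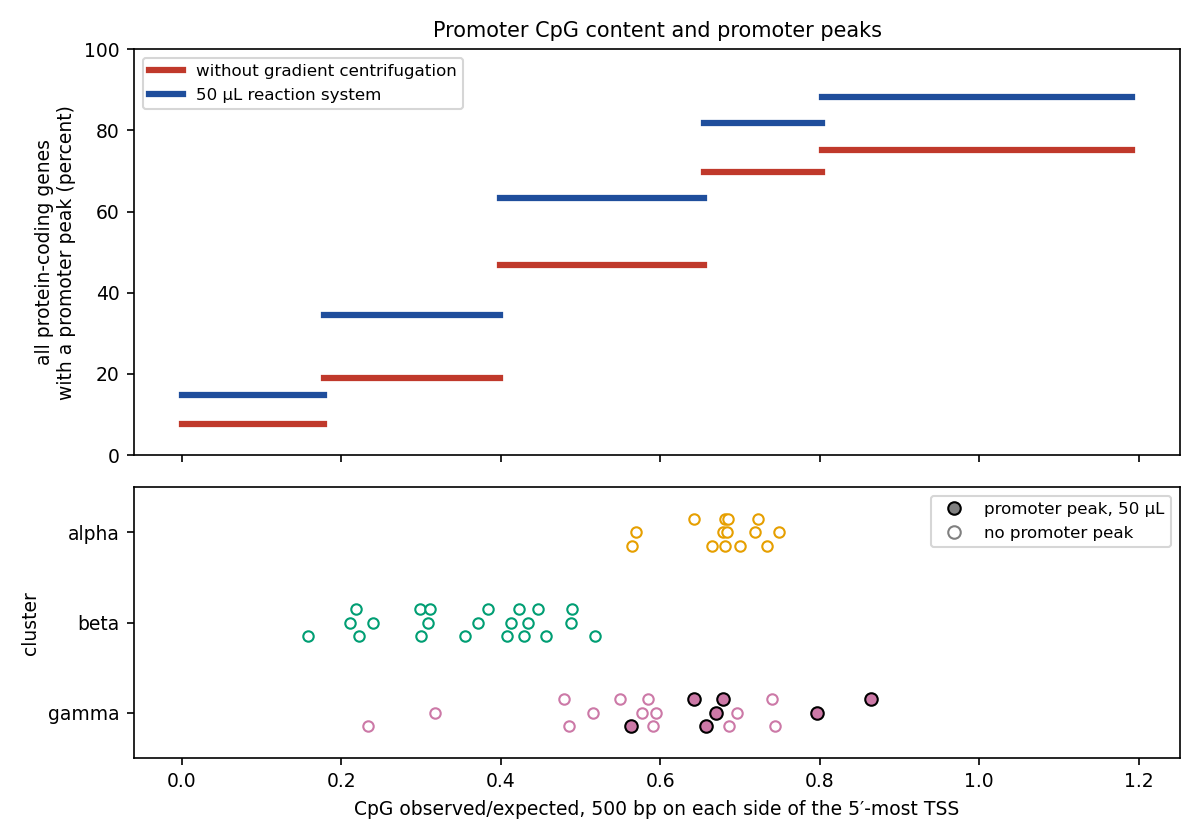
Top, percent of all protein-coding genes with a promoter peak in each quintile of the CpG observed/expected ratio, with red for the library without density gradient centrifugation, blue for the 50 µL library and each bar drawn over the quintile's range. Bottom, the ratio of each member by cluster, filled where a promoter peak was present in the 50 µL library. Alpha genes (0.564 to 0.749) lie where 46.9% to 69.9% and 63.3% to 81.9% of all genes were open, and none was open.

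Members resemble each other in sequence, and reads that fit several places can be lost before peaks are called. Of the 31-base words within 1 kb of a member's TSS, a median of 93.4% occurred once in the genome (73.2 to 100). The alpha genes had 88.7%, the beta genes 99.5% and the gamma genes 97.5%. Gamma genes with a peak in the 50 µL library had 97.3% and those without 98.0%. Pcdha7 had the lowest value, 73.2%, and Pcdhac1 and Pcdhac2, at 100% each, had no peak either. The methods also kept reads shorter than these words, and such reads are placed less surely than these shares state. The part of read mapping in the empty promoters was not tested beyond this.

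Protocadherin promoters are known targets of CTCF in neurons, so a strict form of the CTCF core consensus was searched on both strands. None of the 57 member promoters held it from 250 bp before to 50 bp after the TSS, where 557 of all protein-coding promoters did (2.54%). Within 200 bp windows around summits it was in 0 of 2 cluster peaks without density gradient centrifugation, where 12.6% of all peaks held it, and in 0 of 12 cluster peaks of the 50 µL library, where 5.15% did. The absence of a match says nothing of whether CTCF binds. The consensus did occur under the peak at chr18:37883540-37883896 in Diaph1, 1 of the 5 peaks of the flank after gamma that both lists share.

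The genes for proteins that act on or with the clustered protocadherins were mostly open. Of 41 such genes, 30 were open at the promoter without density gradient centrifugation (73.2%, 57.1 to 85.8) and 38 in the 50 µL library (92.7%, 80.1 to 98.5), against 43.7% and 56.6% of all protein-coding genes. These genes were not set beside genes of like CpG content, with which the share of open promoters rises. Of the 13 architectural genes, 9 and 12 had a promoter peak. The cohesin subunits Rad21 and Smc3 had fold enrichments of 8.53 and 6.83 without density gradient centrifugation and of 4.34 and 4.99 in the 50 µL library. The Ctcf promoter had a peak in the 50 µL library (3.01) and none in the other, and Zfp143, a zinc finger factor that shares sites with CTCF, had none in either.

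Of the 13 repressors, 10 were open without density gradient centrifugation and 13 in the 50 µL library. Setdb1, a histone H3 lysine methyltransferase that restrains the clusters in mouse neurons, had fold enrichments of 6.52 and 8.05. Dnmt1, the maintenance DNA methyltransferase, had 11.3 and 5.44. Smchd1, a chromatin protein that silences the clusters (2.57), and Dnmt3b, which methylates their promoters in the mouse embryo (3.68), had a peak in the 50 µL library and none in the other. Of the 15 partners and proteases, 11 and 13 had a peak. Ptk2 and Ptk2b, kinases bound by the shared cytoplasmic domains, had 8.70 and 4.80 without density gradient centrifugation and 4.32 and 3.49 in the 50 µL library. Ret, a receptor kinase, and Wasf3, of the actin-regulating WAVE complex, had none in either.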

How the data were processed

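Peaks were called per library. Per the methods, the authors mapped reads to mm10 using BWA mem, removed duplicates, ran MACS2 at a q of 0.01 with no shift and removed blacklisted regions. BWA and SAMtools are also named in the submitters' processing notes. The deposited lists hold a display score (not used), the fold enrichment ratio at the summit, its −log10 p and −log10 q, and the offset of the summit from the peak start. Read and cell numbers were not used here, so depth is unknown, and peak number and length stand in its place. Intervals are exact (Clopper-Pearson).

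A promoter peak overlapped 1 kb on either side of any annotated TSS of GENCODE vM21 on GRCm38. CpG ratios, 31-base words and motif letters were read from RefSeq GRCm38.p6. Tiles with over 10% unknown bases were left out. Promoter sequences of the members are not printed. A marker list is not reported here. No significance test was made. Named genes are all members with a promoter peak, C-type, first and last members, the nearest and farthest without one, other genes in the span, listed regulators and the leading genes of comparison families. Members and lists were chosen with earlier results of these data known. Alternatives were other significance, fold, window, TSS and overlap settings and a list of equal length. Counting was checked on simulated data. Python 3.11.15, numpy 2.4.6, pandas 2.3.3, scipy 1.17.1, matplotlib 3.10.9 and pysam 0.24.0 were used.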

Additional observations from a re-analysis of the deposited data

How the results depend on the processing

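Of 189 values for 39 results under 15 settings, 165 stayed within 1.5 times the value given, or within its interval for shares, and 24 moved further. With the 50 µL list cut to equal length, promoter peaks fell to 0 for the members and 0 for the gamma cluster, to 1 for the non-clustered protocadherins, 6 for the Hox genes and 1 for the Vmn1r genes. The gamma cluster then had 1 peak and the flank after it 7, and the median distances were 413 kb for beta and 116 kb for gamma genes. At a fold enrichment of at least 4, the 50 µL library gave 8 Hox genes, 20 regulators and partners, 7 gamma peaks, 6 peaks after gamma and a gamma median of 16.2 kb. Without density gradient centrifugation, 1 non-clustered protocadherin was left at a −log10 q above 5, 1 at a fold enrichment of at least 4 and 1 in a 500 bp window. In a 3 kb window that library gave 10 Hox genes and 2 Vmn1r genes, and the 50 µL library 6 Vmn1r genes, or 1 in a 500 bp window. With a reciprocal overlap of 50%, 1 gamma peak of either list was shared. In 400 bp around summits, 1 cluster peak of the 50 µL library held the CTCF consensus. The cause of these moves was not tested, apart from the smaller number of peaks that stricter or shorter lists hold. The alpha and beta clusters had 0 promoter peaks in both libraries under every setting tried. This could not have come out otherwise, and these values are among the 165 that stayed. Their start sites lay at least 127 kb from any peak, the widest window was 3 kb, and the other settings add no peaks. Counting Pcdhgb8, and leaving out TSSs beyond 5 kb of the gene start, were chosen after seeing the data and moved no count beyond 1.5 times.

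No paired analysis was possible because each condition had 1 library. A peak list shows only what passed the caller's threshold in all cells of a library together, so accessibility in few cells or at low depth was not detectable here.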

Other observations

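Of 26 genes of other types with a TSS in the clusters or the 100 kb flanks (antisense, non-coding and pseudogene records), 0 were open at a promoter without density gradient centrifugation and 4 in the 50 µL library. All 4 lie in the gamma cluster: Gm37118, an antisense record at the start of Pcdhga1, Gm26672, a transcript on the opposite strand to the gamma genes that overlaps the stretch with Pcdhgb7 and Pcdhga11, Pcdhgb8 and Gm38182. The peaks at the first 2 are those of Pcdhga1 and Pcdhga11. By position the first lies at Pcdhga1: its summit is 2 bp from that TSS, and its edge 735 bp from that of Gm37118. The second has its summit 24 bp from the TSS of Pcdhga11 and its edge 70 bp from a TSS of Gm26672. ATAC signal carries no strand, so it cannot be told apart which of these transcripts the second peak belongs to. BC037039, antisense to Pcdhgc3, had its TSS 1468 bp from the nearest peak without density gradient centrifugation and 1392 bp from it in the 50 µL library.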
